A study of Homo sapiens with 4 samples.

Results

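The 39 genes described here serve the repair of DNA double-strand breaks and interstrand crosslinks: damage kinases, homologous recombination, the Fanconi anemia pathway and end joining. They were listed by name for their function, by a rule that uses no measured value, though earlier results of these data were known. All 39 were found among the 26484 gene symbols of the deposited table and passed the filter on low values (10 or more normalized counts in 2 or more libraries). RNA was sequenced from A375, a human melanoma cell line. The knockout group, A375 p53-/-, consisted of 2 libraries of cells whose p53 gene was disrupted by CRISPR-Cas9, and the parental group of 2 libraries of the line with wild-type p53. Both were grown in DMEM, and the labels name no damaging agent. The knockout columns are numbered 2 and 8, which do not match the labelled replicate numbers. The labels do not say whether these are clones or cultures, and there were no edited cells that kept p53, so effects of p53 loss, editing and selection cannot be told apart.

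Homologous recombination copies a broken stretch of DNA from the sister chromatid and therefore works in S and G2 phase. The ends are cut back by nucleases, BRCA1, PALB2 and BRCA2 load the recombinase on the exposed strand, and helicases and nucleases resolve the joined molecules. The Fanconi anemia proteins detect crosslinks that block replication forks, attach ubiquitin to a pair of proteins that includes FANCI, and hand the lesion to nucleases and to recombination. End joining ligates broken ends directly in any phase. Many recombination and Fanconi genes are transcribed mainly in S and G2 phase under E2F and DREAM control, and p53, through p21, is known to lower part of them. ATM and CHEK2 in turn phosphorylate and stabilise p53 after damage.

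No member passed the test between the groups, and the 2 knockout libraries lay farther apart than the 2 parental ones for 31 of the 39 members (74.4% of all tested genes). Recovered reads totalled 30334054 and 32160978 in knockout libraries 2 and 8, and 29230554 and 36331894 in parental libraries 1 and 2. Members had 129 to 28491 reads in knockout library 2, 153 to 28194 in knockout library 8, 118 to 24959 in parental library 1 and 125 to 30255 in parental library 2. Over all genes the chi-square per degree of freedom was 65.3 between the knockout libraries and 5.85 between the parental ones. Of 18 genes that p53 is known to activate, 16 lay below the parental pair in both knockout libraries (23.7% of all tested genes did so). The other 2 lay above that pair in knockout library 2 and below it in knockout library 8 (12.3% of all tested genes). An unadjusted limma p under 0.05 was reached by 12 of the 18, all lower (6.16% of all tested genes). This list was written with earlier results of these data known. Of 9 melanocytic markers, 6 were tested, and MLANA and TYR, markers of pigmented cells, were at 0 in all 4 libraries. SOX10 had 28130 and 25660 normalized counts in the knockout libraries and 30030 and 29590 in the parental ones. MITF, the melanocyte master regulator, had 849 and 1050 in the knockout libraries and 1645 and 1562 in the parental ones, and S100A1 had 3285 and 5068 in the knockout libraries and 5910 and 5557 in the parental ones. Of the 6, 4 were lower (23.7% of all tested genes) and 2 higher (22.8%) in the knockout without overlap. S100B, also lower, had 1728 and 1428 in the knockout libraries and 2138 and 2037 in the parental ones. The 2 higher were CSPG4, with 63660 and 58470 in the knockout libraries and 54960 and 52770 in the parental ones, and PMEL. PMEL had 55.8 and 36.1 in the knockout libraries and 28.5 and 28.1 in the parental ones. At an unadjusted limma p under 0.05 there were 2 of the 6, both lower (6.16% of all tested genes). DESeq2 called 1 lower, where it called 2.44% of the genes that received an adjusted p, in either direction. The list summed to 97700 and 91720 in the knockout libraries and 94710 and 91540 in the parental ones. CSPG4 gave most of each sum. Epithelial markers summed to 35.8 and 27.4 in the knockout libraries and 47.2 and 67.5 in the parental ones, with CDH1 at 0 in all. Fibroblast markers summed to 1305 and 1016 in the knockout libraries and 998 and 1015 in the parental ones. Most came from PDGFRB, with 1166 and 764 in knockout libraries 2 and 8, against 829 and 847 in the parental ones. LUM ran the other way within the knockout pair, at 31.6 and 165, against 92.1 and 101 in the parental ones. DCN had 30.5 and 27.4 in the knockout libraries, above 11.0 and 14.9 in the parental ones. COL1A1 overlapped between the groups, with 73.7 and 58.6 in the knockout libraries and 63.6 and 47.4 in the parental ones. COL3A1 was at 0 in both knockout libraries and at 1.10 and 0.877 in the parental ones. COL3A1, COL1A2 and THY1 did not pass the filter on low values and were not tested. Of 4 tested, 1 was higher without overlap (22.8% of all genes) and 0 lower (23.7%), and 1 higher had an unadjusted limma p under 0.05 (5.85%). Of the blood cell markers, HBB was at 0 in all libraries, and CD68, which marks macrophages, had 2343 and 968 normalized counts in the knockout libraries and 1704 and 1448 in the parental ones. LYZ, lysozyme, had the other order within the knockout pair, with 113.7 and 262.7 in knockout libraries 2 and 8, against 80.04 and 113.2 in the parental ones. The part of these markers in the results was not tested.

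The test was limma with a trend on log2(normalized count + 1), adjusted by Benjamini-Hochberg over 15431 genes. It called 0 of the 39 members at an adjusted p of 0.05, as it called 0% of all genes; DESeq2 on the recovered reads also called 0 members, against 2.44% of the 16330 genes that received an adjusted p. The smallest limma adjusted p among members was 0.353. At an unadjusted limma p under 0.05 there were 2 members, both lower (CHEK2 and MRE11A), where 6.16% of all genes were lower and 5.85% higher. Both knockout libraries lay above both parental ones for 4 members (22.8% of all genes did so) and below both for 7 (23.7%). The groups overlapped for the 28 other members; over all genes, 46.4% did not overlap in either direction. The median log2 fold change, knockout minus parental, was 0.04 over the members and -0.0057 over all tested genes, and single members ran between -0.49 and 0.36. With 2 libraries a side these estimates are loose: the 95% intervals of the log2 fold change reached as low as -1.03 (ATM) and as high as 0.96 (CLSPN).

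**Figure D1:**
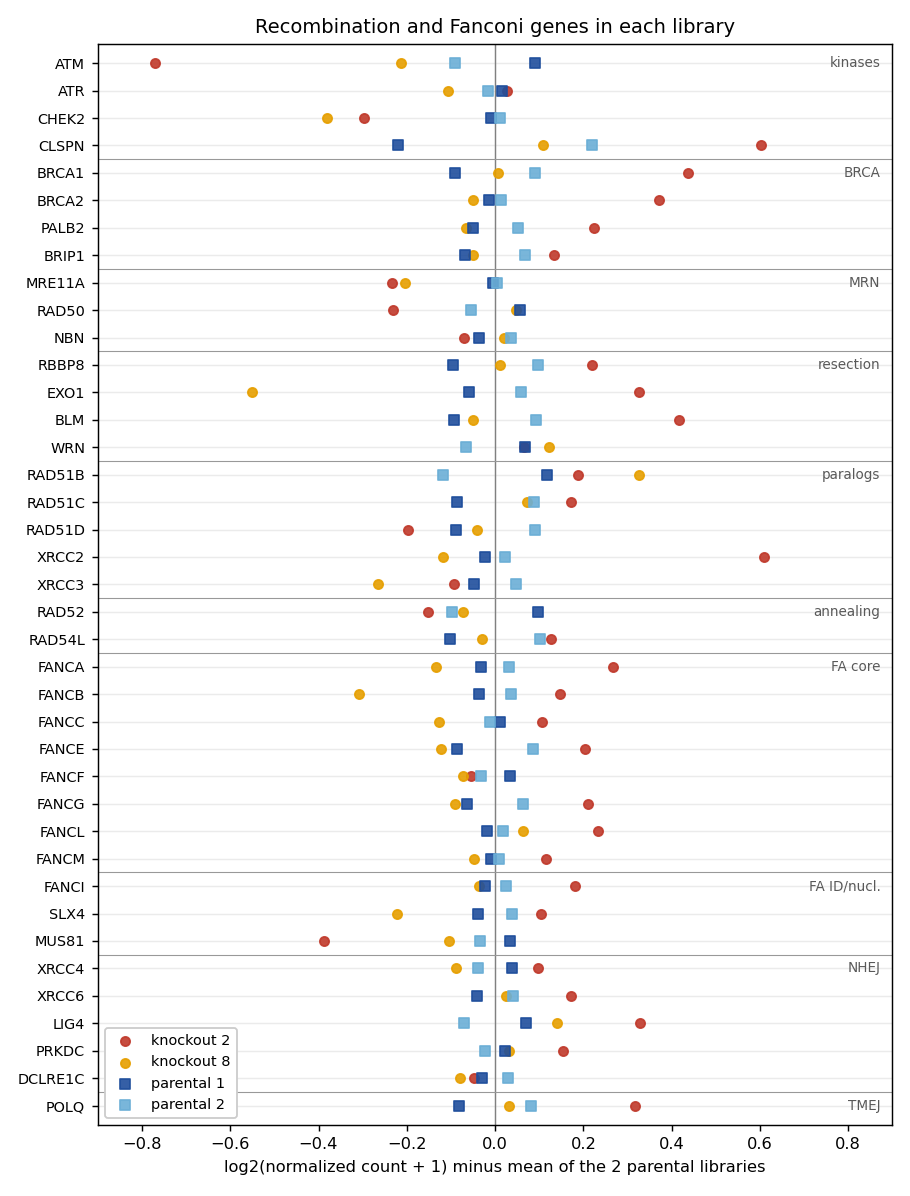
Each row is 1 of the 39 genes and each mark 1 library (circles knockout 2 and 8, squares parental 1 and 2), on an axis of log2(normalized count + 1) minus the mean of the 2 parental libraries, with the genes grouped by role. Knockout library 2 is the highest mark in 26 rows, and the widest gaps between the circles belong to EXO1, XRCC2 and ATM.

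The promoters below show sequence for the 4 members whose levels differed most between the knockout libraries: EXO1, CLSPN and XRCC2, highest in library 2, and ATM, lowest there. The sequences come from RefSeq (GRCh38.p14), 250 bases before to 50 after a gene start, on the gene's strand. EXO1 is chr1:241847954-241848253 on the plus strand, CLSPN chr1:35769929-35770228 on the minus strand, XRCC2 chr7:152676092-152676391 on the minus strand and ATM chr11:108222817-108223116 on the plus strand. Of the starts listed for EXO1 and ATM, 1 is shown each, and for EXO1 it was picked because its window held a match to the letters described next. Capitals mark matches to 8 letters typical of E2F sites, searched as TTTCCCGC, TTTCGCGC, TTTGCCGC or TTTGGCGC on both strands.
EXO1: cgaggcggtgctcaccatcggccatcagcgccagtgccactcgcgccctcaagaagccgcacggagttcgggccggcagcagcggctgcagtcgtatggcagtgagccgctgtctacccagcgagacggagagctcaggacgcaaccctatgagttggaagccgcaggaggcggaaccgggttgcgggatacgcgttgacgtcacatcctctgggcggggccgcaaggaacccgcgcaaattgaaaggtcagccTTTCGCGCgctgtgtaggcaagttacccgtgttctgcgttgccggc
CLSPN: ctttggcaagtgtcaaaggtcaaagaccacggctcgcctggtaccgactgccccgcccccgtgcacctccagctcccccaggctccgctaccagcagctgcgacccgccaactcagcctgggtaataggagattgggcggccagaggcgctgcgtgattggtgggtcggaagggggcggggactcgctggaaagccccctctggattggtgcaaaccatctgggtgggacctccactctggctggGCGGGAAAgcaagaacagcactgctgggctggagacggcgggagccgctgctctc
XRCC2: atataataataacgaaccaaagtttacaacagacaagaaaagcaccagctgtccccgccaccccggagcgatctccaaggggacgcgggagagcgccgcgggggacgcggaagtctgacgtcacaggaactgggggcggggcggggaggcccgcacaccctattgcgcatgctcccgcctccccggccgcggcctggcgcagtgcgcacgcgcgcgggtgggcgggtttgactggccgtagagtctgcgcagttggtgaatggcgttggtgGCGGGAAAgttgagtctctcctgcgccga
ATM: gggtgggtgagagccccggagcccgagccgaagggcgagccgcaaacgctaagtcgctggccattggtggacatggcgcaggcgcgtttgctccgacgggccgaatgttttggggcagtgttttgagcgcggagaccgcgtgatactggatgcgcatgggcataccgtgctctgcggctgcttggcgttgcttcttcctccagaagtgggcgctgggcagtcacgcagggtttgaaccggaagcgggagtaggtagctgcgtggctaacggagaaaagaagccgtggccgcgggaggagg
EXO1 held 1 match at bases 255 to 262 of the window, CLSPN 1 at 246 to 253 and XRCC2 1 at 272 to 279, while this ATM window and the windows of the other EXO1 and ATM starts held 0. Next in size of difference came BLM and FANCB, both also highest in library 2, whose windows held 0 matches and are not shown. Their log2 ratios of knockout library 8 to knockout library 2 were -0.47 and -0.45, against -0.49 for CLSPN.

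Promoters were matched for 35 of the 39 members, and those of FANCI, NBN, PRKDC and WRN were not used here. These E2F letters occurred in 6 of the 35 (17.1%), namely CLSPN, EXO1, XRCC2, FANCA, FANCC and XRCC6, and in 3.99% of the 27305 genes with a promoter. All 6 had more normalized counts in knockout library 2 than in any other library, as did 18 of the 29 members without the letters. The median log2 ratio of knockout library 8 to knockout library 2 was -0.45 over the 6 and -0.17 over the 29. EXO1 had the widest gap of the 6, at -0.88. Its log2 ratio to the parental mean in knockout library 8 was -0.55, and the median over its chromosomal neighbours there was -0.52. CCAAT, the letters bound by NF-Y, occurred in 51.4% of the members (39.7% of all genes), and the letters TTTGAA or TTCGAA of the cell cycle homology region in 11.4% (19.5% of all genes). The shares over all genes with a promoter were not limited to genes that passed the filter on low values, whereas all members had passed it. Such matches describe the letters of these windows and were not tested as binding sites.

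Among the damage kinases and their checkpoint partners, ATM (chr11:108222484-108369102, GRCh38), the kinase that answers double-strand breaks, had 2904 and 4276 normalized counts in knockout libraries 2 and 8, against 5280 and 4652 in parental libraries 1 and 2. Both knockout libraries were below both parental ones, library 2 far below and library 8 closer. The log2 fold change was -0.49 ± 0.21 (SE), the largest decrease on the list, and did not pass (limma adjusted p = 0.444). CHEK2 (chr22:28687743-28742422), the kinase that ATM activates, had 604 and 569 in the knockout libraries, against 737 and 747 in the parental ones. Here the groups were apart and each pair lay close together. Its log2 fold change of -0.34 ± 0.10 gave an unadjusted limma p of 0.0253 and an adjusted p of 0.353, the smallest of all members. GENCODE lists 4 pseudogenes named after CHEK2, and HSCB overlaps 6.70% of its exon bases on the other strand, so reads could be split or shared between them, depending on counting settings that are not given.

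ATR, the kinase of stalled replication forks, had 2198 and 2003 normalized counts in the knockout libraries and 2182 and 2133 in the parental ones. The groups overlapped, and the 95% interval of its log2 fold change was -0.27 to 0.19. CLSPN, claspin, which links ATR to its effector kinase at the fork, had 2329 and 1653 in knockout libraries 2 and 8, against 1317 and 1786 in parental libraries 1 and 2. Knockout library 2 stood above the other 3, but knockout library 8 lay between the parental libraries, which were themselves 0.44 apart on the log2 scale. The fold change of 0.36 ± 0.23 (log2) was the largest increase on the list and did not pass (limma adjusted p = 0.586).

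The recombination mediators were highest in knockout library 2 without exception over BRCA1, BRCA2, PALB2 and BRIP1. BRCA1, the ubiquitin ligase that promotes end resection and brings in PALB2, had 2959 and 2197 normalized counts in knockout libraries 2 and 8 and 2054 and 2330 in parental libraries 1 and 2. BRCA2, which loads the recombinase onto single-stranded DNA, had 930 and 694 in the knockout libraries and 713 and 725 in the parental ones. In both genes library 2 was above the parental pair, while library 8 lay within it for BRCA1 and just below it for BRCA2. PALB2, the bridge between them, had 1189 and 974 in the knockout libraries, against 983 and 1055 in the parental ones. The 3 log2 fold changes were 0.22 ± 0.17, 0.16 ± 0.17 and 0.08 ± 0.13, and none passed (limma adjusted p = 0.642, 0.726 and 0.830). BRIP1, a helicase that binds BRCA1, was also highest in library 2, with library 8 within the parental range, at 1100 and 969 in the knockout libraries and 956 and 1052 in the parental ones.

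The break sensor formed by MRE11A (now MRE11), RAD50 and NBN did not share that order; in none of the 3 genes was knockout library 2 the highest. MRE11A (chr11:94415578-94493908), the nuclease, had 2017 and 2058 normalized counts in the knockout libraries, against 2364 and 2378 in the parental ones. The groups did not overlap, and each pair lay close together. Its log2 fold change was -0.22 ± 0.07, with an unadjusted limma p of 0.0357 and an adjusted p of 0.391. RAD50, the ATPase that bridges ends, had 2341 and 2843 in knockout libraries 2 and 8, against 2857 and 2645 in parental libraries 1 and 2, so that library 2 alone was low. In GENCODE 79.7% of RAD50 exon bases also belong to a second protein-coding gene on the same strand that is not among the table's symbols. NBN, the subunit that recruits ATM, ranged from 2821 to 3038 over the 4 libraries, with a 95% interval of -0.24 to 0.19 for its log2 fold change.

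Of the resection nucleases and helicases, EXO1 (chr1:241847967-241895148), which degrades the strand from the break, gave the widest gap between the knockout libraries of any member. It had 1950 and 1063 normalized counts in knockout libraries 2 and 8, against 1494 and 1622 in parental libraries 1 and 2, so that the knockout libraries lay on opposite sides of the parental pair. Library 8 had 0.545 times the level of library 2 (exact 95% binomial interval 0.505 to 0.588, which covers counting error only). The mean change was -0.11 ± 0.30 (log2). BLM, the helicase that dissolves joined chromosomes, had 1482 and 1071 in the knockout libraries and 1041 and 1183 in the parental ones, again high in library 2 and within the parental range in library 8. RBBP8 (CtIP), which starts resection, had the same order with 1353 and 1170 in the knockout libraries, against 1087 and 1242 in the parental ones. WRN, a helicase of the same family as BLM, ranged only from 797 to 909 over all libraries.

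The 5 recombinase paralogs, which help build and stabilise the recombinase filament, differed in which library was high. XRCC2 (chr7:152644779-152676165) had 1089 and 657 normalized counts in knockout libraries 2 and 8, against 703 and 725 in parental libraries 1 and 2. Library 2 was far above the other 3, and library 8 was below the parental pair. The library 8 to library 2 ratio was 0.603 (95% binomial interval 0.547 to 0.666). RAD51B, the weakest member, had 136 and 149 in the knockout libraries, against 129 and 110 in the parental ones, a log2 fold change of 0.26 ± 0.20 (limma adjusted p = 0.641). RAD51C, shared by both paralog complexes, had 1000 and 933 in the knockout libraries and 835 and 943 in the parental ones, and RAD51D had 308 and 344 in the knockout libraries and 332 and 376 in the parental ones. Both overlapped between the groups. XRCC3 was below both parental libraries in both knockout libraries (1085 and 963 in the knockout libraries, against 1119 and 1196 in the parental ones), but 76.7% of its exon bases are shared with KLC1 on the other strand.

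RAD54L, a motor that helps the filament invade its partner, had 1388 and 1247 normalized counts in the knockout libraries and 1185 and 1366 in the parental ones, and RAD52, which anneals single strands, had 511 and 541 in the knockout libraries and 609 and 532 in the parental ones. Neither gene separated the groups, and 25.1% of RAD54L exon bases are shared with LRRC41 on the other strand.

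The 8 listed genes of the Fanconi core complex, the ubiquitin ligase of the pathway and its FANCM anchor, were all lower in knockout library 8 than in knockout library 2. FANCA had 2317 and 1754 normalized counts in knockout libraries 2 and 8, against 1885 and 1967 in parental libraries 1 and 2. FANCB had 604 and 440 in the knockout libraries, against 532 and 560 in the parental ones. In both genes library 2 was above the parental pair and library 8 below it. That split, library 2 above and library 8 below both parental libraries, occurred in 6 of the 8 core genes, in 14 of the 39 members and in 12.3% of all tested genes. The exceptions were FANCF, an adaptor of the complex, with a narrow range of 487 to 524 over all libraries, and FANCL, its catalytic subunit. FANCL had 2040 and 1815 in the knockout libraries, above 1714 and 1758 in the parental ones, at a log2 fold change of 0.15 ± 0.09 (limma adjusted p = 0.580). FANCM, a translocase that binds blocked forks, had 504 and 450 in the knockout libraries and 463 and 468 in the parental ones. The 95% interval of its log2 fold change was -0.30 to 0.36. The other strand carries ZNF276 over 23.6% of FANCA exon bases and VRK2 over 18.7% of those of FANCL.

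Downstream of the core complex, FANCI, a substrate of its ligase, had 5806 and 4996 normalized counts in knockout libraries 2 and 8 and 5040 and 5209 in parental libraries 1 and 2. SLX4, the scaffold of the unhooking nucleases, had 788 and 629 in the knockout libraries, against 714 and 753 in the parental ones. Both followed the split between the libraries. MUS81, a nuclease of branched DNA, was lowest in knockout library 2, with 1534 and 1865 in knockout libraries 2 and 8, below 2054 and 1960 in the parental ones. Its log2 fold change was -0.25 ± 0.12 (limma adjusted p = 0.503), and CFL1, with a mean of 23820 normalized counts, covers 13.9% of its exon bases from the other strand.

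All 5 genes of classical end joining had fewer normalized counts in knockout library 8 than in knockout library 2, by small margins. PRKDC, the catalytic subunit of DNA-PK, had 29984 and 27536 normalized counts in the knockout libraries, against 27366 and 26538 in the parental ones. The knockout pair was above the parental pair by a narrow margin, a log2 fold change of 0.09 ± 0.10. XRCC6 (Ku70), which binds the bare ends, had 12669 and 11439 in the knockout libraries and 10921 and 11567 in the parental ones, with a 95% interval of -0.15 to 0.35 for the log2 fold change. GENCODE lists 5 pseudogenes named after XRCC6. LIG4, the ligase, was above both parental libraries in both knockout libraries (1467 and 1286 in the knockout libraries, against 1226 and 1112 in the parental ones), at 0.23 ± 0.11 (log2; limma adjusted p = 0.495). Its cofactor XRCC4 overlapped between the groups, at 607 and 534 in the knockout libraries and 583 and 553 in the parental ones. DCLRE1C (Artemis), which opens hairpin ends, ranged from 438 to 472. POLQ, the polymerase of microhomology-mediated joining, had 1242 and 1019 in the knockout libraries and 942 and 1055 in the parental ones, high in library 2 and within the parental range in library 8.

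Normalized counts are not corrected for gene length, so members were ranked by normalized count per kb of annotated exon, the mean over the 4 libraries. XRCC6 led with 3543 per kb, followed by PRKDC at 1807, FANCL at 759, FANCI at 678 and NBN at 477. The low end held FANCM at 55.7, RAD51D at 30.1 and RAD51B at 17.5, and BRCA2, at 62.4, stood well below BRCA1, at 259.6 per kb. The median member had 178 per kb. In the middle of this order the ranges of PALB2, XRCC4, FANCA, BLM and ATM over the libraries overlapped. Within each of the 4 libraries, PALB2 was above FANCA, and FANCA and XRCC4 were above BLM. XRCC4 changed places with PALB2 and FANCA between libraries. ATM was the lowest of these genes in knockout library 2 and the highest in parental library 1. Exon lengths were taken from all GENCODE transcripts, which lowers the value of genes with many annotated exons.

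**Figure D2:**
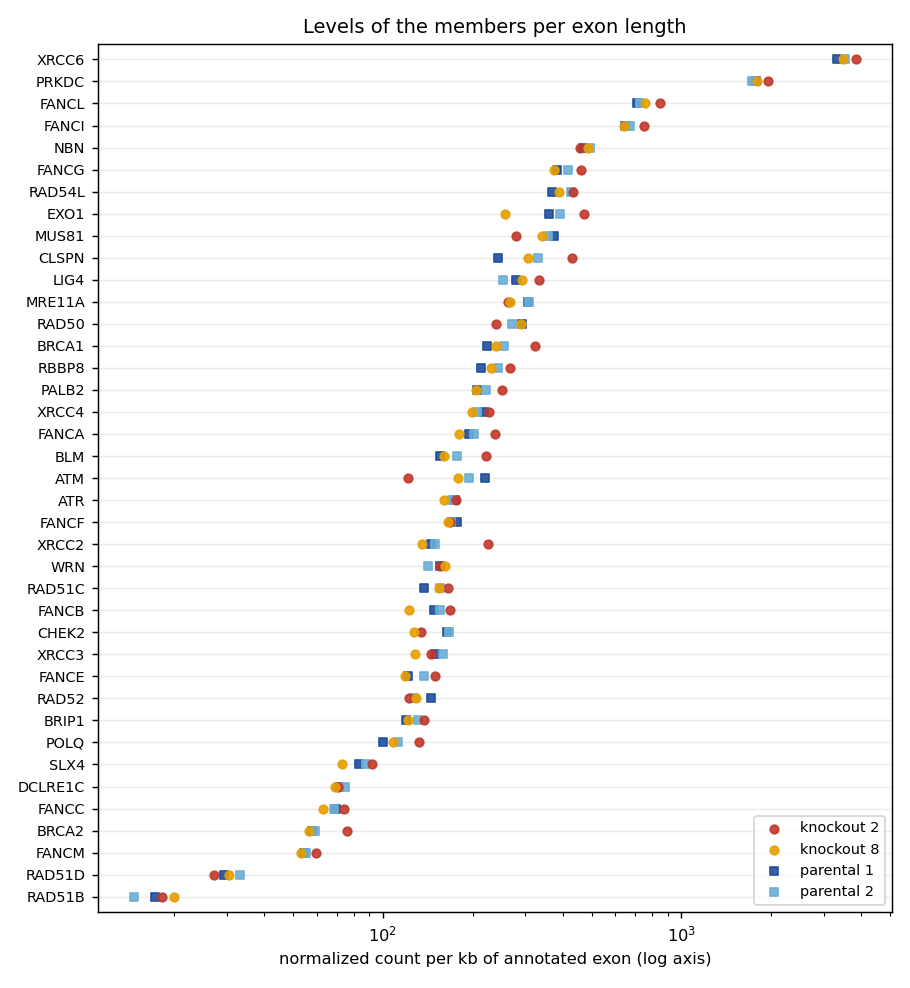
Rows are the 39 genes in order of their mean normalized count per kb of annotated exon (log axis), and marks are the single libraries (circles knockout 2 and 8, squares parental 1 and 2). XRCC6 and PRKDC stand apart at the top and RAD51B and RAD51D at the bottom, and the marks of most middle rows overlap along the axis.

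The knockout libraries differed from each other mostly in 1 direction. Knockout library 2 was the highest of the 4 libraries for 26 of the 39 members (33.7% of all tested genes), and knockout library 8 was below knockout library 2 for 30 of them (49.5% of all tested genes). Relative to the parental mean, the members had a median log2 ratio of 0.15 in library 2 and of -0.05 in library 8 of the knockout. By counting error alone, the exact 95% binomial interval of the library 8 to library 2 ratio was wholly below 1 for 25 members, wholly above 1 for 4 and included 1 for 10. Within the parental pair, 11 members had an interval above 1 for library 2 over library 1, 5 had one below 1 and 23 included 1. The absolute log2 difference had a median of 0.19 within the knockout pair and 0.09 within the parental pair over the members, against 0.23 and 0.09 over all tested genes. The size of the differences was thus near that of other genes, and their direction was more one-sided. With 1 library on each side this order has no replicate check and was not tested.

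**Figure D3:**
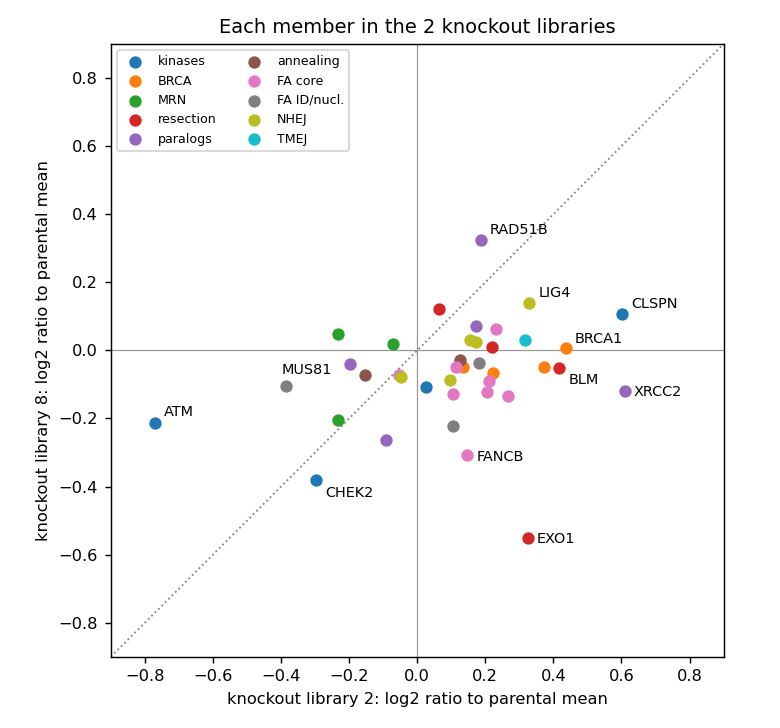
Each point is 1 gene, with its log2 ratio to the parental mean in knockout library 2 across and in knockout library 8 up, and colours for the roles; the dotted line marks equal ratios. Most points lie below the dotted line and to the right of 0, and ATM, MUS81 and CHEK2 lie at the lower left.

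Genes of the cell cycle showed the same order of libraries. Of 27 G1/S genes, 24 were lower in knockout library 8 than in knockout library 2, and their median log2 ratios to the parental mean were 0.31 (library 2) and -0.08 (library 8). Of 25 G2/M genes, all 25 were lower in library 8, and their medians were 0.16 (library 2) and -0.21 (library 8). The parental libraries differed too: the median log2 ratio of parental library 2 to parental library 1 was 0.06 over the members, 0.17 over G1/S genes and 0.14 over G2/M genes. The part of the cell cycle in the members' differences was not tested, and in bulk RNA a different share of cells in S and G2 phase cannot be told apart from a different RNA level per cell. Limma and DESeq2 called 0 G1/S and 0 G2/M genes between the groups after adjustment. At an unadjusted limma p under 0.05 there were 2 of the 27 G1/S genes, both higher, and 0 G2/M genes. Of all tested genes, 5.85% were higher and 6.16% lower at that p.

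**Figure D4:**
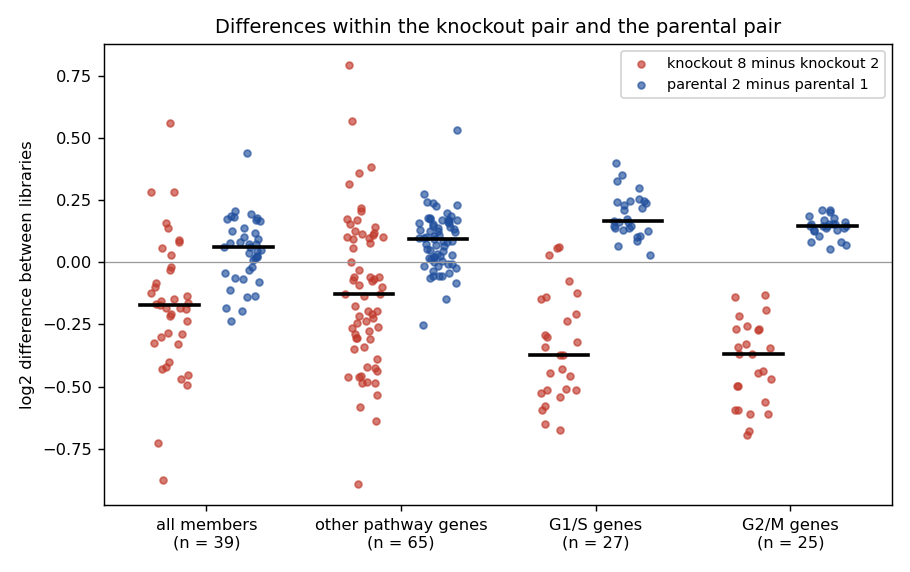
Points are genes of 4 lists and black bars their medians; red shows the log2 difference knockout 8 minus knockout 2 and blue parental 2 minus parental 1. The red medians are -0.17 for the members, -0.13 for other pathway genes and -0.37 for both G1/S and G2/M genes, and the blue medians are 0.06, 0.09, 0.17 and 0.14 in the same order.

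Fitted against the parental pair alone, each knockout library gave its own set of differences. These fits assume that the lone library varies like the parental ones, so their p-values measure that library and not p53 loss. Limma called 15 members in knockout library 2 (32.6% of all genes). Of these, 10 were higher (15.7% of all genes): XRCC2, CLSPN, BRCA1, BLM, BRCA2, LIG4, EXO1, POLQ, FANCA and FANCL. The other 5 were lower (16.9% of all genes): ATM, MUS81, CHEK2, MRE11A and RAD50. The size was 0.61 (log2) for XRCC2 (limma adjusted p = 3.37e-04), 0.44 for BRCA1 (adjusted p = 0.00170) and -0.77 for ATM (adjusted p = 1.08e-05). In knockout library 8 limma called 2 members (18.8% of all genes), 0 higher (8.48% of all genes) and 2 lower (10.3% of all genes), EXO1 at -0.55 (adjusted p = 4.33e-04) and CHEK2 at -0.38 (adjusted p = 0.0190). EXO1 was thus called in opposite directions by the fits for the 2 libraries, and CHEK2 was the member called in the same direction by both. The fits share the parental libraries and are not independent.

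EXO1 and ATM lie in stretches of chromosome whose genes had lower medians in 1 knockout library. Over the 40 nearest genes with a mean of at least 100 normalized counts, the ratio to the parental mean around EXO1 (chromosome 1, 235 to 247 Mb, GRCh38) had a log2 median of -0.52 in library 8 and -0.07 in library 2 of the knockout. EXO1 itself was at -0.55 in knockout library 8, or -0.03 relative to these neighbours. Around ATM (chromosome 11, 102 to 114 Mb) the median was -0.27 (library 2) and 0.02 (library 8), while ATM was at -0.77 in knockout library 2, or -0.50 relative to its neighbours. For the other 37 members the neighbours' medians ran from -0.13 to 0.11 in knockout library 2 and from -0.10 to 0.09 in knockout library 8. DNA copy number was not measured, and its part in these values was not tested.

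**Figure D5:**
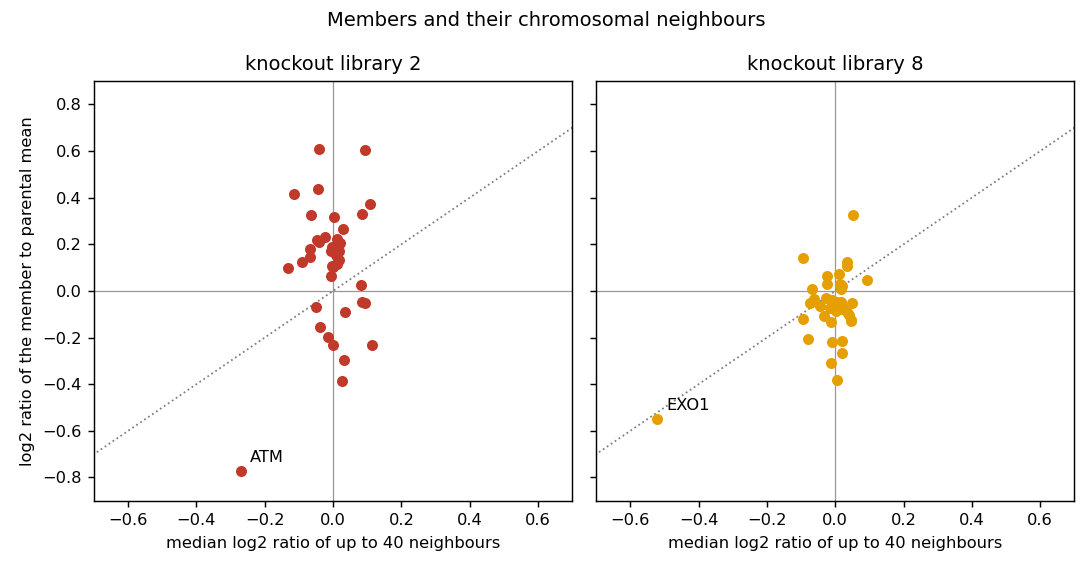
For knockout library 2 (left) and knockout library 8 (right), each point is 1 member, with the median over up to 40 nearby genes across and its own value up, both as log2 ratios to the parental mean; the dotted line marks equal values. Other members lie between -0.13 and 0.11 on the horizontal axis, apart from ATM in library 2 (-0.27) and EXO1 in library 8 (-0.52), and EXO1 lies close to the dotted line.

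Of 68 further genes of these pathways, 65 were in the table and tested. Limma and DESeq2 called 0 of them after adjustment, and 2 had an unadjusted limma p under 0.05, both higher (5.85% of all genes were). USP1, which removes ubiquitin from the Fanconi substrates, had 4277 and 3731 normalized counts in the knockout libraries, against 3122 and 3331 in the parental ones (log2 fold change 0.31 ± 0.10, limma adjusted p = 0.373). TP53BP1, which protects ends from resection, had 3135 and 3065 in the knockout libraries, against 2668 and 2405 in the parental ones (0.29 ± 0.09, limma adjusted p = 0.346). In both genes the groups were apart. The median log2 fold change of the 65 genes was 0.06. Without overlap between the groups, 13 were higher (22.8% of all genes) and 14 lower (23.7% of all genes), shares near those of all genes. Knockout library 8 was below knockout library 2 for 43 of them (49.5% of all genes).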

How the data were processed

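RNA was measured by sequencing of 4 libraries of A375 cells. Per the labels' protocols, RNA from TRIzol and DNase treatment was selected for poly(A) tails and made into directional libraries. The deposited table holds a normalized signal per gene: read counts per gene scaled by the authors with 1 size factor for each library. This was read from the values, of which 100% came back as whole reads within 0.001. Per the submitters' processing notes, the tools included HTSeq, STAR, DESeq2, Picard and deepTools, on hg38; for versions, annotation and strand setting nothing was given in the sources used here. Parental columns were matched by title, and knockout columns by group. Where nothing says that libraries came from separate cultures, p-values reflect only how these libraries spread, which may be technical; intervals on reads cover counting error only.

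The main test was limma 3.58.1 with trend on log2(normalized count + 1), which understates changes of weak genes, over 15431 genes. With 2 against 2 libraries exact permutation of 1 gene has a smallest p of 33.3% and was left out. Alternatives on recovered reads were edgeR 4.0.16, DESeq2 1.42.0 and limma-voom. The fits were also run on simulated counts with the same spread for every gene and both groups. The real knockout and parental pairs differed in spread, so that run does not show how the fits behave here. Members, lists and tests were chosen with earlier results of these data known. Values in every library were given for 23 members named by rule (hubs of each role, an unadjusted limma p or a DESeq2 adjusted p under 0.05, the 6 largest fold changes and the 6 largest differences between knockout libraries) and, briefly, for others named after their values were seen; other pathway genes were named at an unadjusted limma p under 0.05. Positions and exon lengths came from GENCODE 29 on GRCh38, with MRE11A matched through its current symbol. The level of the edited gene itself is not reported here.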

Additional observations from a re-analysis of the deposited data

How the results depend on the processing

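DESeq2 on the recovered reads called 198 genes higher and 200 lower over the whole table, where limma called 0; limma at an unadjusted p under 0.05 had 903 higher and 950 lower. Members called stayed at 0 under edgeR, DESeq2, limma-voom, TMM or upper-quartile factors, a pseudocount of 0.1, no filter and a minimum of 100, and under these 8 settings all 184 log2 fold changes of the 23 named members kept their sign. The median log2 fold change over members ran from 0.03 to 0.05 under them. The median difference between the knockout libraries, recomputed only with TMM factors, upper-quartile factors and a pseudocount of 0.1, ran from -0.19 to -0.16. Leaving out 1 library moved more, the median to between -0.05 and 0.15. All-gene calls then ran from 0 to 2421 higher and 0 to 2602 lower, member calls from 0 to 10 higher and 0 to 5 lower, and members at an unadjusted limma p under 0.05 from 0 to 15 higher (20.6% of all genes at the 15) and 0 to 6 lower (16.3% at the 6). The highest values came without knockout library 8, except the 6, which came without knockout library 2; without either parental library the count of 2 lower members became 0. Members whose groups did not overlap ran from 5 to 27 higher and from 9 to 21 lower, as fewer libraries are compared. Without knockout library 8, 27 were higher (42.5% of all genes) and 11 lower (43.5%). Without knockout library 2, 5 were higher (40.2% of all genes) and 21 lower (40.8%). Without parental library 1, 5 were higher (29.8% of all genes) and 9 lower (30.9%). Without parental library 2, 13 were higher (32.3% of all genes) and 9 lower (32.8%). The choice of test, filter and pseudocount does not enter these counts. Leave-one-out ranges of the log2 fold change spanned 0 for ATR (-0.11 to 0.0272), BLM (-0.0505 to 0.42), BRCA2 (-0.0502 to 0.37), EXO1 (-0.55 to 0.32), FANCA (-0.13 to 0.27), FANCB (-0.31 to 0.15), FANCI (-0.0365 to 0.18), FANCM (-0.0481 to 0.11), PALB2 (-0.0651 to 0.22), RAD50 (-0.23 to 0.0483), RAD54L (-0.0537 to 0.15) and XRCC2 (-0.12 to 0.61). No paired analysis was possible because columns of the knockout group are numbered 2 and 8, numbers that no replicate label gives.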
